A study of Homo sapiens with 12 samples.

Results

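Long noncoding RNAs (lncRNAs) are transcripts with little or no protein-coding sequence, and the 5 described here are LINC00511, AC019118.3, RP11-495P10.8, RP11-304L19.5 and RP6-109B7.3. They were selected on measured values, as being among the lncRNAs with the largest differences between a control and a RUNX1 library of Nalm-6, a human cell line of precursor B acute lymphoblastic leukemia. They are 5 of 57905 genes in the files, and 5 of the 202 lncRNA genes that reached 10 CPM in either library. CPM are molecules of a gene (UMIs, each counted once) per 1000000 human UMIs of the summed cells. The ratios between the libraries therefore describe the selection and carry no test.

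Single-cell RNA-seq with a 3' assay, which reads poly(A) transcripts near their end, came from 1 library per group. The cells of the library labelled RUNX1 carry the Tet-On regulatory vector and a pLVX-Tight-Puro vector holding RUNX1 cDNA, induced with 500 ng/ml doxycycline for 72 h. The control is labelled empty vector and 72 h, yet its title names DMSO. The study's filter settings give the same number of passing cells as found here to a Nalm-6 sample kept in DMSO for a shorter time, so whether the control cells carried the vectors or received doxycycline is not certain. Vector, inducer, solvent and culture thus cannot be told apart from RUNX1. RUNX1 encodes a transcription factor that blood cell formation requires, and the labels set a library meant to have it induced beside a control. With 1 library per group no test was possible, and all intervals are 95% intervals for counting error only.

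Of 6073 barcodes in the control 5598 passed the filter, and of 5491 in the library labelled RUNX1 4800 passed, with 75754137 and 75350615 human UMIs in all, and 10 barcodes were present in both libraries. RUNX1 itself, the check of the label, was lower in the library labelled RUNX1 (30.4 against 69.7 CPM, log2 ratio -1.20, -1.27 to -1.13), so higher and lower below follow the labels only. Whether the induced transcript holds the end that the assay reads, or the labels were exchanged, was not tested. Of the B precursor markers 13 of 13 in the files reached 10 CPM in both libraries, whereas 0 of 7 T cell, 0 of 8 myeloid and 0 of 5 erythroid markers did in either. Mitochondrial genes took 9.45% of control UMIs as against 13.1% for RUNX1, which moves every CPM with it. With totals that leave out mitochondrial and ribosomal protein genes the log2 ratios of the 5 lncRNAs were 8.08, 7.59, 5.93, -1.01 and -2.62 in the order above, and in cells under 10% mitochondrial UMIs 8.38, 7.96, 5.68, -1.52 and -2.83, against 7.86, 7.37, 5.72, -1.23 and -2.83 in all cells that passed. Phase calls at an equal depth of 8000 UMIs put 299 of 5185 control cells (5.77%) in G1, here named non-cycling, as against 2260 of 4188 (54.0%) for RUNX1. The remainder, called S or G2/M, are cycling, and the largest score of 173 and 252 cells lay within 0.05 of the cut.

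lncRNAs can act in the nucleus on chromatin or on RNA processing, can serve as host transcripts from which small RNAs are cut, or can have no known role, and many are confined to few cell types. Of the 202 lncRNA genes, 43 (21.3%) were higher by 2-fold or more in the library labelled RUNX1 and 4 (1.98%) lower by as much. With totals that leave out mitochondrial and ribosomal protein genes 112 of 330 were higher, and in cells under 10% mitochondrial UMIs 68 of 215. In cycling cells alone 11 of 163 were higher, and with a limit of 1 CPM 377 of 1148. For all genes the counts in that order were 918 of 9412, 697 of 8231, 126 of 7699 and 1608 of 12782. Among protein-coding genes in all cells that passed, 4.56% of 7580 were higher by 2-fold or more and 4.08% lower. For all 7980 genes these shares were 5.18% higher (413) and 4.10% lower (327). The median log2 ratio was 0.44 for lncRNAs, -0.14 for protein-coding genes and -0.13 for all genes. At a mean of 5 to 10 CPM 51.0% of 51 lncRNAs were higher by 2-fold or more against 25.5% of 365 protein-coding genes, at 10 to 20 CPM 15.4% of 78 against 5.58% of 2080, at 20 to 50 CPM 3 of 39 against 91 of 2674, and from 50 CPM upwards 2 of 34 against 46 of 2461. The share was larger for lncRNAs in each of these ranges and declined with level in both classes. A gene with a mean under 10 CPM had to differ between the libraries to reach 10 CPM in either. The shares in the lowest range, and the decline from it, are therefore partly set by that limit. Scaling moved the split of all genes, with 344 higher and 461 lower under TMM factors, 579 and 179 under median-of-ratios factors, and 918 and 177 with totals that leave out mitochondrial and ribosomal protein genes. The median of all genes was then -0.23, 0.04 and 0.14, and the 5 lncRNAs kept their directions under each.

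LINC00511, AC019118.3 and RP11-495P10.8 took ranks 2 to 4 among the 202 lncRNAs in the order of the log2 ratio. LINC00967, which had 969 UMIs in the library labelled RUNX1 but 0 in the control (a log2 ratio of 8.34 against a floor of 3 UMIs, with a lower counting limit of 8.04), stood at rank 1 and is not among the 5. AE000661.37 (TRD-AS1), at rank 5, came next with 0.422 and 15.3 CPM, a log2 ratio of 5.18, followed by AC104024.1 at 4.19. RP6-109B7.3 was the lowest of all 202. RP11-304L19.5 was at rank 4 from the low end, after RP11-386I14.4 (log2 ratio -1.33) and level with IQCH-AS1 (both -1.23), and CTC-228N24.3 (-0.93) stood just above it. AC019118.3 and RP11-495P10.8 reached the limit of 10 CPM narrowly, with 10.9 and 10.4 CPM. The 3 higher lncRNAs passed that limit only through the library labelled RUNX1 and RP6-109B7.3 only through the control, so each had to differ to be listed, whereas RP11-304L19.5 passed in both.

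**Figure D1:**
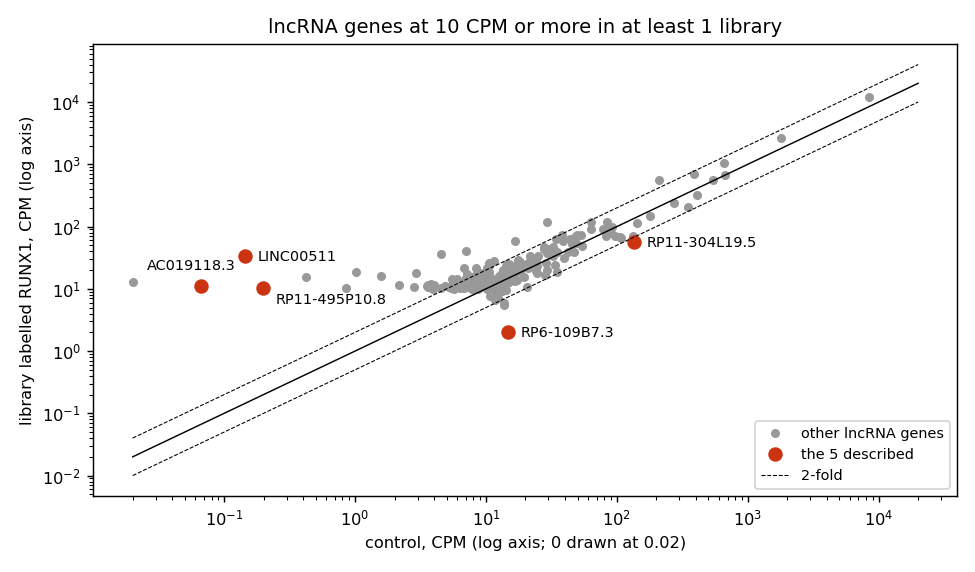
Each point is 1 of 202 lncRNA genes, with control CPM on the horizontal axis and RUNX1 library CPM on the vertical axis, both logarithmic. Dashed lines mark 2-fold, red points are the 5 lncRNAs described, and LINC00967 is drawn at the left edge because it had 0 UMIs in the control.

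LINC00511 is an intergenic lncRNA best known from solid tumours. Its gene (ENSG00000227036) spans chr17:70286232-70636611 on the minus strand of GRCh37, the build called hg19 in the files, with 107 annotated transcripts of 1 to 9 exons. The window around the RefSeq start (GRCh38.p14, chr17:72640423-72640722, minus strand, 250 bases before the start and 50 after) is shown because it is very rich in CG dinucleotides, which are in capitals.
LINC00511 start window: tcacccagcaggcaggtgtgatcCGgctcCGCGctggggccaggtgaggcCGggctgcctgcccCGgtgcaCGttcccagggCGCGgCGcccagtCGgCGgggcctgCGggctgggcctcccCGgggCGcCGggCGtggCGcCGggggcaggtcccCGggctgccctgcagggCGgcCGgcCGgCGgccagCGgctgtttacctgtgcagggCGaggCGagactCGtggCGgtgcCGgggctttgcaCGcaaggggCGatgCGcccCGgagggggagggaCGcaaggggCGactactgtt
It holds 35 CG, against a median of 14 over 35114 such windows, more than 85.9% of them, and its GC content of 78.0% exceeds that of 95.1%. The letters TGTGGT, a core recognised by RUNX factors, occur on neither strand, and 13.1% of all windows hold them on one or the other. A poly(A) signal, AATAAA or ATTAAA, stood in the last 50 bases of 62 of its 107 transcripts, so which end was read is not known. In the last 300 bases of its main transcript 29.4% of the runs of 32 bases occurred elsewhere in the genome, and reads there could have been lost or shared.

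LINC00511 had 11 UMIs in the control, 0.145 CPM (0.0725 to 0.260), and 2548 UMIs in the library labelled RUNX1, 33.8 CPM (32.5 to 35.2). The ratio was 233-fold (130 to 467), a log2 ratio of 7.86. The 11 control UMIs came from 6 of 5598 cells, and 1 cell held 6 of them, without which the control level was 0.0660 CPM. That cell was called S, its barcode did not occur in the other library, and it had 0 UMIs of FCER1G and of GCHFR, the genes that went with LINC00511 most closely in the other library.

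Within the library labelled RUNX1, LINC00511 was concentrated in non-cycling cells. Those cells had 64.1 CPM (61.4 to 67.0) against 4.38 CPM (3.76 to 5.08) in cycling cells, a ratio of 14.6-fold (12.6 to 17.2). Of the UMIs in cells with a phase call, they held 91.9% of those of LINC00511 and 43.7% of all. S cells had 3.65 CPM and G2/M cells 5.41 CPM, with intervals that overlapped slightly (2.92 to 4.51 and 4.35 to 6.65). The difference between libraries was also present among cycling cells alone, with 0.144 CPM in the control and a ratio of 30.4-fold (16.2 to 64.6). Among non-cycling cells the control had 1 UMI, so that the ratio of 213-fold has an interval of 38.1 to 8410. Over cells with a phase call, the library labelled RUNX1 was reweighted to the control's share of UMIs from non-cycling cells, 4.55%. This took the LINC00511 level from 30.5 to 7.10 CPM and the log2 ratio from 7.66 to 5.56.

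AC019118.3 (ENSG00000236760) is an unnamed lncRNA gene at chr2:3135353-3149551 on the minus strand of GRCh37, with 2 annotated transcripts of 2 exons. The last 100 bases of its main transcript (chr2:3135757-3135856) are shown because the assay reads near transcript ends. No poly(A) signal was found in their last 50 bases.
AC019118.3 end: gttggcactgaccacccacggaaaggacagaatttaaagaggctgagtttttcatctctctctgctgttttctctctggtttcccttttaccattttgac
AATAAA or ATTAAA stood in the last 50 bases of 0 of its 2 annotated transcripts, so the position of the end that was read is not known from the annotation. None of the 385 runs of 32 bases in this transcript occurred elsewhere in the genome.

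AC019118.3 had 5 UMIs in 5 control cells, 0.0660 CPM (0.0214 to 0.154), and 824 UMIs in the library labelled RUNX1, 10.9 CPM (10.2 to 11.7), a ratio of 166-fold (70.7 to 512). Its pattern within that library followed LINC00511, with 20.5 CPM (18.9 to 22.2) in non-cycling and 1.10 CPM (0.795 to 1.47) in cycling cells. The ratio of 18.7-fold (13.8 to 26.0) between the states was close to that of LINC00511. Of the AC019118.3 UMIs in cells with a phase call, 93.6% were in non-cycling cells. Cycling cells alone still differed between the libraries, at 0.0719 and 1.10 CPM, 15.2-fold (6.05 to 49.2). Non-cycling control cells had 0 UMIs, and the level in the other library was 22.7-fold above the floor of 3 UMIs (0.905 CPM), with a lower counting limit of 18.4-fold. With the control's share of UMIs from non-cycling cells, its log2 ratio, over cells with a phase call, went from 7.12 to 4.85.

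RP11-495P10.8 (ENSG00000231196) is a 3-exon lincRNA at chr1:147762996-147767966 on the minus strand of GRCh37, in a region with NBPF genes, a family of recently duplicated copies. Of the 626 runs of 32 bases in its transcript, 22.7% occurred elsewhere in the genome, and of the runs in its last 300 bases 10.4% did, so part of its reads may belong to, or have been lost to, near copies.

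RP11-495P10.8 had 15 UMIs in 15 control cells, 0.198 CPM (0.111 to 0.327), and 786 UMIs in 272 cells of the library labelled RUNX1, 10.4 CPM (9.72 to 11.2), a ratio of 52.7-fold (31.7 to 94.6). Its ratio between non-cycling cells (18.2 CPM) and cycling cells (0.498 CPM) was 36.5-fold (23.4 to 60.2), above that of LINC00511 and overlapping that of AC019118.3. Of its UMIs in cells with a phase call, 96.6% were in non-cycling cells. In cycling cells the libraries had 0.187 and 0.498 CPM, a ratio of 2.66-fold (1.26 to 5.82), far from the 52.7-fold of all cells. In G2/M cells alone the ratio of 1.99-fold had an interval that included 1 (0.706 to 5.80). Its control UMIs were spread as 1 per cell, and 13 of the 15 cells were cycling. With the control's share of UMIs from non-cycling cells, its log2 ratio, over cells with a phase call, went from 5.32 to 2.66.

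RP11-304L19.5 (ENSG00000260260), named SNHG19 in the annotation, hosts SNORD60, a small nucleolar RNA of the C/D class, which guide methylation of ribosomal RNA. It is a short gene at chr16:2204793-2205406 on the minus strand of GRCh37. Its RefSeq start window (GRCh38.p14, chr16:2155309-2155608, minus strand) is shown because it has the letters TATAAA, in capitals with the CG dinucleotides, 30 bases before the start.
RP11-304L19.5 start window: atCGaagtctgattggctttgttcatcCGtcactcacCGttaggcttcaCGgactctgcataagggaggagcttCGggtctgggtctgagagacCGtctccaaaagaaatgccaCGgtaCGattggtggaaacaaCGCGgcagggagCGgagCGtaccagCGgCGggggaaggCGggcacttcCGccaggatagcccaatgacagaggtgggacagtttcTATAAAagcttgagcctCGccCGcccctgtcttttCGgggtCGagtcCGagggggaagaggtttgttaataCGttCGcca
RP11-304L19.5 end: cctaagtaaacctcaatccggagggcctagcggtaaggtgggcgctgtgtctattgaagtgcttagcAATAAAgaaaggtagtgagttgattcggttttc
The end (chr16:2204793-2204892, GRCh37) has the poly(A) signal AATAAA in capitals 33 bases from its last base. TATAAA occurs on either strand in 11.5% of all windows, while its 23 CG are more than in 64.2% of them. TGTGGT is again not among these 300 bases.

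RP11-304L19.5 was the most abundant of the 5. It had 10159 UMIs in the control, 134 CPM (132 to 137), and 4324 in the library labelled RUNX1, 57.4 CPM (55.7 to 59.1), 2.34-fold lower (2.25 to 2.42). The level was lower in each state: from 184 to 62.4 CPM in non-cycling cells, from 152 to 62.5 CPM in S cells and from 96.1 to 43.2 CPM in G2/M cells. In the control it was 1.41-fold (1.30 to 1.53) higher in non-cycling than in cycling cells, and in the library labelled RUNX1 1.15-fold (1.08 to 1.22). With the control's share of non-cycling cells, the log2 ratio over the cells with a phase call was -1.28 in place of -1.20. SNORD60-2, the small RNA itself, had 4 UMIs in the control and 0 in the other library. Small nucleolar RNAs have no poly(A) tail, so this count says nothing of their level.

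RP6-109B7.3 (ENSG00000241990), named PRR34-AS1 in the annotation, lies antisense to PRR34 and overlaps, on the same strand, the host gene of let-7 microRNAs, at chr22:46449585-46453090 on the plus strand of GRCh37. The last 100 bases of its main transcript (chr22:46452991-46453090) are shown with the poly(A) signal AATAAA in capitals, 28 bases from the end.
RP6-109B7.3 end: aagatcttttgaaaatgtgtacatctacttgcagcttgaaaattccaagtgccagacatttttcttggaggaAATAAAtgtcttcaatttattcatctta
All 3 annotated transcripts have such a signal, and 0 of the 433 runs of 32 bases in this transcript occur elsewhere in the genome. Its RefSeq start window has 24 CG and 78.0% GC and holds neither TGTGGT nor TATAAA.

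RP6-109B7.3 had 1111 UMIs in the control, 14.7 CPM (13.8 to 15.6), and 155 in the library labelled RUNX1, 2.06 CPM (1.75 to 2.41), 7.13-fold lower (6.02 to 8.49). Its level differed little by state. The control had 14.5 CPM in non-cycling and 14.6 CPM in cycling cells, and the library labelled RUNX1 had 1.86 and 2.31 CPM, with ratios between the states of 0.989 (0.724 to 1.32) and 0.804 (0.569 to 1.13). In both states the libraries differed by ratios with overlapping intervals, 7.78-fold lower (5.19 to 11.6) in non-cycling and 6.32-fold lower (5.11 to 7.91) in cycling cells. The host gene on the same strand, listed as FLJ27365, had 260 and 162 UMIs (log2 ratio -0.68, -0.97 to -0.39), and PRR34, listed as C22orf26, had 11 and 10 UMIs. Whether reads in the overlap were divided between these genes was not tested.

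**Figure D2:**
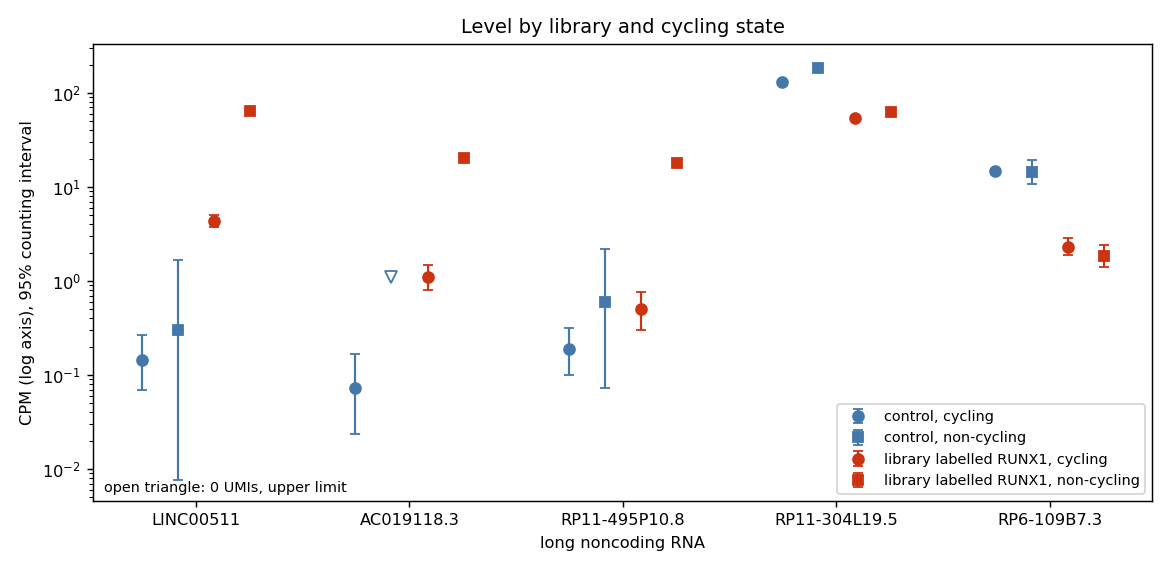
Points give the CPM (logarithmic axis) of each lncRNA in cycling (circles) and non-cycling (squares) cells of the control (blue) and of the library labelled RUNX1 (red), with 95% counting intervals; the open triangle is the upper limit for 0 UMIs. In the library labelled RUNX1 the 3 higher lncRNAs separate by state, at 64.1, 20.5 and 18.2 CPM in non-cycling cells, while RP6-109B7.3 lies at 14.5 and 14.6 CPM in the control and at 1.86 and 2.31 CPM in the other library.

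A like order appeared without phase calls, when cells were ranked within their library by the share of UMIs from cell-cycle genes and divided into deciles. These genes are those used for the phase calls, so the deciles are not independent of the calls. LINC00511 was between 68.7 and 81.9 CPM in the 5 lowest deciles of the library labelled RUNX1, 36.8 CPM in decile 6 and between 2.88 and 6.29 CPM in the 4 highest. AC019118.3 went from 29.2 CPM in the lowest decile to 0.366 CPM in the highest, and RP11-495P10.8 from 28.6 to 0.641 CPM. In the control none of the 3 exceeded 0.876 CPM in any decile, and in the decile with that value the cell with 6 LINC00511 UMIs gave 6 of 7. RP11-304L19.5 declined in the control from 185 CPM in the lowest decile to 90.2 CPM in the highest. In the library labelled RUNX1 it had another shape, with 50.0 CPM in the lowest decile, 75.9 CPM in decile 7 and 38.6 CPM in the highest. RP6-109B7.3 stayed between 12.2 and 16.6 CPM in the control and between 1.24 and 3.20 CPM in the library labelled RUNX1.

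**Figure D3:**
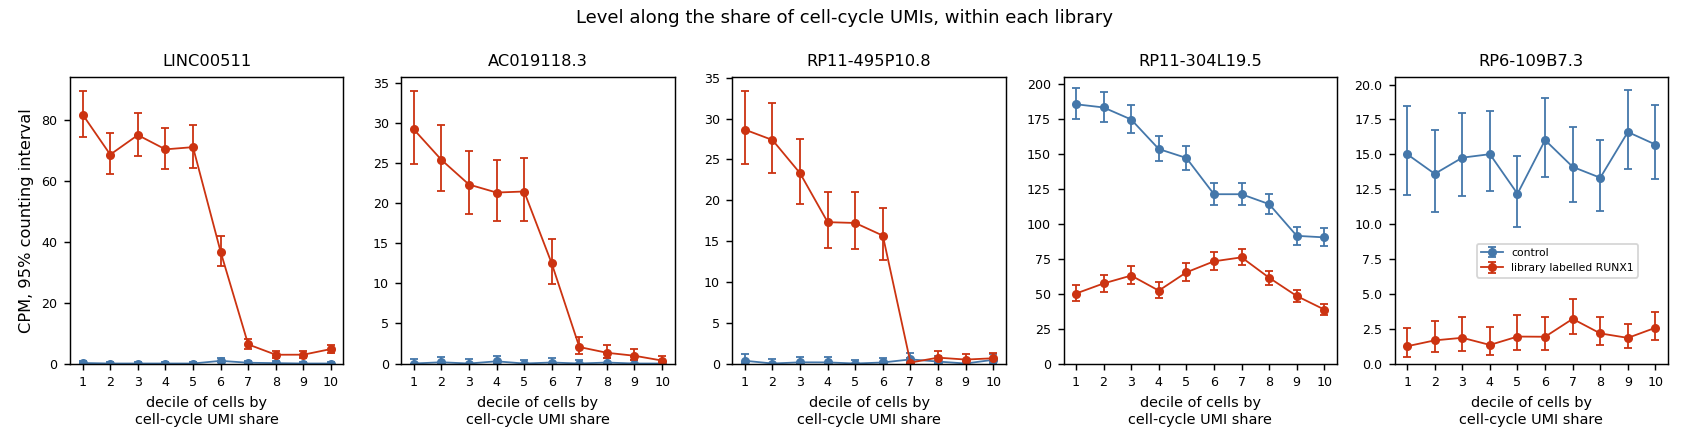
Lines join the CPM, with 95% counting intervals, of each lncRNA over the 10 deciles of cells, ordered from the lowest to the highest share of UMIs from cell-cycle genes. Red lines (library labelled RUNX1) drop between deciles 5 and 7 for the 3 higher lncRNAs, and the blue line (control) of RP11-304L19.5 declines from 185 to 90.2 CPM.

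The lncRNAs also differed in how their UMIs were spread over cells. At 8000 UMIs per cell, LINC00511 was seen in 18.0% of cells for RUNX1 (16.8 to 19.2, exact Clopper-Pearson), where an even spread would give 28.5%, and in 24.3% without thinning. AC019118.3 was seen in 8.48% (7.65 to 9.36) against 10.2% for an even spread, and in 12.8% without thinning. RP11-495P10.8 was the most uneven, in 3.75% of cells (3.19 to 4.37) against 8.98%, and in 5.67% without thinning. All its UMIs of the library were in 272 of 4800 cells, 35 of which held 50% of them, and the highest cell had 29. Thinning left out 612 cells of this library with fewer than 8000 UMIs. Non-cycling and cycling cells held 566 and 20 of the 786 UMIs of RP11-495P10.8, and those 612 cells held the rest. For LINC00511 the states held 1999 and 176 of 2548 UMIs, and for AC019118.3 639 and 44 of 824. The part of low depth in this was not tested. RP6-109B7.3 was close to an even spread, in 10.4% of control cells (9.56 to 11.2) against 10.5%, with at most 3 UMIs in a cell and 17.5% without thinning. RP11-304L19.5 was seen in 59.8% of control cells (58.4 to 61.1) and in 35.7% of cells for RUNX1 (34.2 to 37.2), and in 74.8% and 52.0% without thinning. No barcode called mouse is in the files, so no cells that should lack these RNAs gave a background share. The control, where LINC00511, AC019118.3 and RP11-495P10.8 were seen in 0.0772%, 0.0579% and 0.174% of thinned cells, bounds it for that library only.

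**Figure D4:**
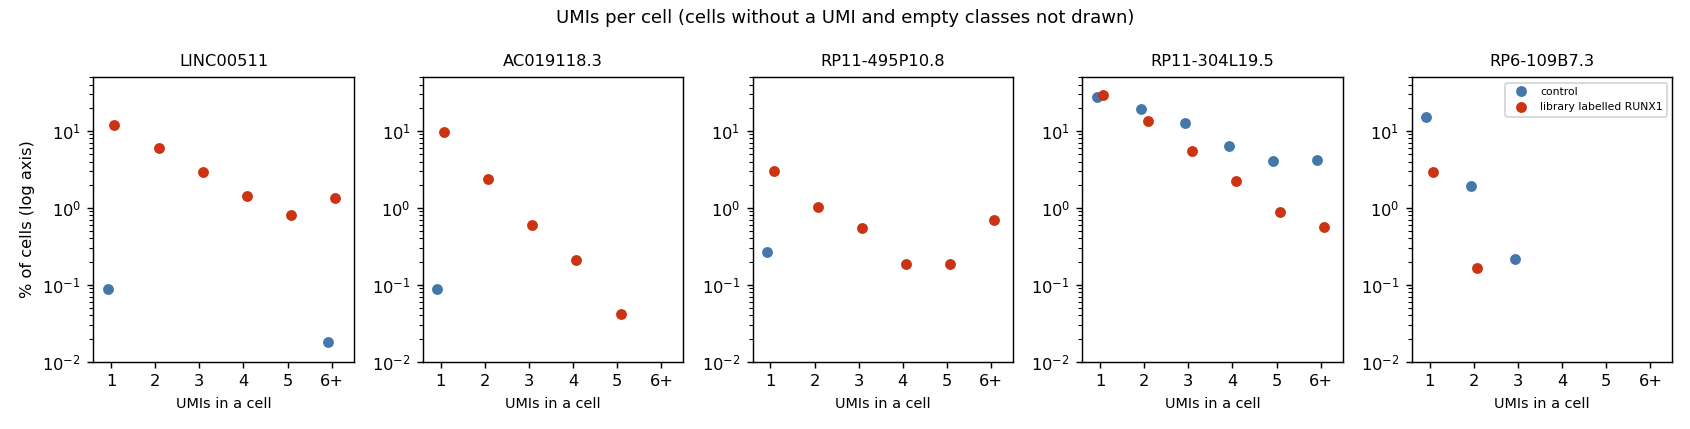
Points give the percentage of cells (logarithmic axis) with 1, 2, 3, 4, 5 or at least 6 UMIs of each lncRNA in the control (blue) and the library labelled RUNX1 (red), without thinning. RP11-495P10.8 has more cells with 6 or more UMIs (33) than with 5 (9) in the library labelled RUNX1, whereas RP6-109B7.3 ends at 3 UMIs in the control.

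Non-cycling cells of the library labelled RUNX1 were next divided by genes already known to vary among them in these data: C1orf141 or LINC00967 (218 cells), then CCL3 or CCL4, chemokine genes (810 cells), then FCER1G, an adaptor of Fc receptors (458 cells), and none of these (774 cells). LINC00511 was highest in cells with CCL3 or CCL4, 105 CPM (98.5 to 112), and with FCER1G alone, 98.1 CPM (90.3 to 106), which overlap. It was lower in cells with C1orf141 or LINC00967, 40.5 CPM (33.2 to 48.8), and lowest with none of these, 22.3 CPM (19.8 to 25.0). AC019118.3 had 37.9 CPM in the cells with CCL3 or CCL4, 28.3 CPM with FCER1G alone, 8.99 CPM with C1orf141 or LINC00967 and 6.02 CPM with none. The intervals of the last pair, 5.76 to 13.4 and 4.75 to 7.52, overlapped.

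RP11-495P10.8 had another order. Of its UMIs in cells with a phase call, 67.2% were in the 218 cells with C1orf141 or LINC00967, at 148 CPM (133 to 163). The other subsets had 8.42, 5.87 and 4.30 CPM. In the 97 of those 218 cells that also had a CCL3 or CCL4 UMI it reached 225 CPM (198 to 254). RP11-304L19.5 ranged only from 49.6 CPM (44.1 to 55.6) with FCER1G alone to 73.1 CPM (68.4 to 77.9) with none of these genes, and RP6-109B7.3 was between 1.13 and 3.75 CPM with overlapping intervals.

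**Figure D5:**
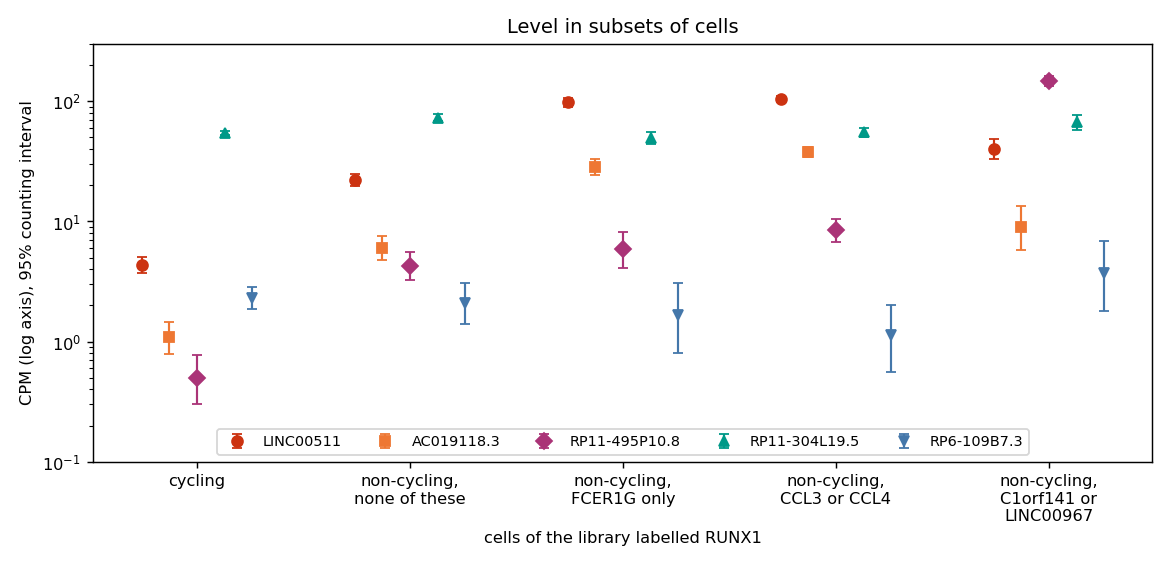
Points give the CPM (logarithmic axis), with 95% counting intervals, of the 5 lncRNAs in cycling cells and in 4 subsets of the non-cycling cells of the library labelled RUNX1. RP11-495P10.8 stands at 148 CPM in the cells with C1orf141 or LINC00967 and under 10 CPM elsewhere, while LINC00511 and AC019118.3 are highest with CCL3 or CCL4, at 105 and 37.9 CPM.

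RP11-495P10.8 thus occurred in partly separate cells from LINC00511 and AC019118.3, which were seen together more often than the product of their shares. Among the 2260 non-cycling cells at 8000 UMIs, LINC00511 (701 cells) and AC019118.3 (336 cells) were together in 175, where the product of their shares is 104. LINC00511 and RP11-495P10.8 (145 cells) were together in 25, against 45.0, and AC019118.3 and RP11-495P10.8 in 7, against 21.6. In the control, RP11-304L19.5 and RP6-109B7.3 were together in 324 of 5185 cells, against 322.

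Genes that varied with each lncRNA across cells were ranked by Pearson's r of log thinned counts over the cells of the library where the lncRNA was higher, among genes seen in 10% or more of its cells. These r are descriptions, since the cells share 1 library and 1 depth and are not replicates. For LINC00511 the 5 highest of 6561 genes were GCHFR (r = 0.49), a regulator of GTP cyclohydrolase, FCER1G (0.45), PTCRA (0.41), the pre-T-cell receptor alpha chain, IL4I1 (0.40), an amino acid oxidase, and C12orf75 (0.37), over 4188 cells. GCHFR had 447 CPM in cells with a LINC00511 UMI and 83.7 CPM in cells without, and within non-cycling cells 471 and 171.5 CPM. The same 5 genes led within non-cycling cells, where r was 0.31 to 0.40. The lowest r belonged to MT1G and MT1X, metallothioneins of a family with near-identical copies, both at -0.36, with 139 against 654 CPM for MT1G. In the control, with 4 thinned cells that had LINC00511, r for these 7 genes was between -0.01 and 0.01.

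AC019118.3 went with FCER1G (r = 0.33), PTCRA (0.32), IL4I1 (0.31), HVCN1 (0.31), a proton channel, and AFF3 (0.29), and the same 5 genes led within non-cycling cells. PTCRA had 441 CPM in cells with AC019118.3 and 143 CPM in cells without. The lowest r were those of VIM (-0.29), an intermediate filament gene, and MT1X (-0.26). FCER1G, PTCRA and IL4I1 were thus among the 5 highest for both LINC00511 and AC019118.3, and each was itself higher in the library labelled RUNX1, by 10.55, 3.85 and 9.40 on the log2 scale. FCER1G and IL4I1 each had only 0.0924 CPM in the control, where 3 UMIs are 0.0396 CPM. Their ratios therefore rest on few control UMIs.

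RP11-495P10.8 went with another set of genes. Its 5 highest were PTPN22 (r = 0.31), a phosphatase of lymphocyte signalling, CSRNP3 (0.27), FTL (0.24), the ferritin light chain, NSMAF (0.24) and MALAT1 (0.24), a nuclear lncRNA. Within non-cycling cells the 5 highest were PTPN22, RPS4Y1 (r = 0.28), NSMAF, FTL and PRKY. There RPS4Y1 had 1340 CPM in cells with RP11-495P10.8 and 404 CPM in cells without. PTPN22 had 201 CPM in the 157 cells with RP11-495P10.8 and 34.8 CPM in the remaining cells, and NSMAF, with a log2 ratio of 0.48 between the libraries, 116 and 24.8 CPM. The lowest r were those of IGLC7 (-0.33), a lambda light chain constant segment, and IGLL1 (-0.29), the surrogate light chain of the pre-B receptor, which resemble each other in sequence. IGLC7 had 780 CPM in cells with RP11-495P10.8 and 6263 CPM in cells without, and IGLL1 436 and 1494 CPM. The summed B precursor markers were lower in non-cycling cells with it (3483 CPM in 145 cells) than in those without (6250 CPM in 2115 cells), and their T cell markers were at 18.1 and 14.4 CPM, myeloid markers at 0 and 1.95 CPM and erythroid markers at 0 in both. VPREB1 and IGLL1, the parts of the surrogate light chain, made up most of the B precursor difference, with 1559 against 3092 CPM and 322 against 1060 CPM, and the sum of the other 11 markers, a choice made after seeing the data, was 1601 CPM with it and 2098 CPM without. For LINC00511 the B precursor sum was on the other side, 7258 CPM with and 5540 CPM without, and for AC019118.3 it was 7333 and 5852 CPM. Without VPREB1 and IGLL1 these were 2239 and 1989 CPM and 2344 and 2018 CPM. T cell markers were at 18.72 CPM with LINC00511 and 12.75 CPM without, and at 21.95 and 13.32 CPM for AC019118.3. Myeloid markers were at 2.318 and 1.604 CPM and at 2.604 and 1.689 CPM, and erythroid markers at 0 in each. Cells with RP11-495P10.8 had a median of 11288 UMIs before thinning and 15.02% mitochondrial UMIs, against 12992 and 13.65% in cells without. For LINC00511 these were 11484 UMIs and 12.95% with, 13663 and 14.12% without, and for AC019118.3 11185 and 12.35% with, 13360 and 14.02% without, and the part of depth and mitochondrial share in these relations was not tested.

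RP11-304L19.5 had weaker relations over the 5185 control cells, led by DANCR (r = 0.16), SNHG8 (0.15), NPM1 (0.15), HSP90AB1 (0.14) and SNHG3 (0.14). DANCR, SNHG8 and SNHG3 are, like RP11-304L19.5, hosts of small nucleolar RNAs, and NPM1 encodes a nucleolar protein. DANCR had 450 CPM in cells with RP11-304L19.5 and 372 CPM in cells without. The r in the library labelled RUNX1 were 0.08 to 0.12. MALAT1 (-0.26) and the tubulin gene TUBB (-0.23) were lowest. For RP6-109B7.3 r lay between -0.04 and 0.05 over 6517 genes, which in counts this sparse is no finding.

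LINC00511 lies 5477 bases from SLC39A11, a zinc transporter gene, which went from 4.44 to 7.66 CPM (log2 ratio 0.79, 0.59 to 0.99), and 164 kb from SOX9, which had 0 UMIs in both libraries. For AC019118.3 all 6 protein-coding genes within 500 kb lie on 1 side, 5 were at 10 CPM or more, and none of these differed 2-fold. The nearest, TSSC1 (EIPR1), 43.1 kb away, had a log2 ratio of 0.16. None of the 8 protein-coding genes within 500 kb of RP11-495P10.8 reached 10 CPM, and NBPF24, the nearest on one side, had 8 and 14 UMIs, with PPIAL4A, the nearest on the other, at 0 in both. Around RP11-304L19.5, 29 of 52 protein-coding genes were measured, with 1 at least 2-fold higher, 1 lower and a median log2 ratio of -0.18. TRAF7, 293 bases away, also had -0.18, and RAB26, 627 bases away on the other side, went from 79 to 192 UMIs. Around RP6-109B7.3, 4 of 10 were measured, of which GTSE1, a G2 and S phase gene, was lower by more than 2-fold (log2 ratio -1.14). PPARA, the nearest on the right, had a log2 ratio of 0.48 and WNT7B, the nearest on the left, 3 and 5 UMIs. Of those under 10 CPM in both libraries, CELSR1, 304 kb away, went from 2 to 198 UMIs and TTC38, 211 kb away, from 3 to 56. FBLN1, 453 kb away, went from 130 to 22 UMIs. Among all 7980 genes at 10 CPM or more 5.18% were higher and 4.10% lower by 2-fold or more. CELSR1, TTC38 and FBLN1 were named for their differences and lie under that limit. At a limit of 1 CPM, which TTC38 does not reach, 1608 of 12782 genes were higher and 502 lower.

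Most other well-known lncRNAs had smaller ratios than the 5, which were selected for large differences, so this contrast follows from the selection. Of 54 listed genes without the 5, 52 were in the files, 35 were measured, 8 had a log2 ratio of 0.5 or more and 3 of -0.5 or less, and the median was 0.06. Among all 202 lncRNA genes 46.5% were higher and 8.42% lower by that limit, and among all 7980 genes 13.8% and 21.4%. NEAT1, the scaffold of paraspeckles, was the highest of the nuclear ones, from 209 to 559 CPM (log2 ratio 1.42), and CCDC26, which was listed with the small nucleolar RNA hosts but is not one, had 2.99. Of the 19 other hosts measured, 2 (ZFAS1 at 0.85 and GAS5 at 0.67) were higher by that limit and 3 (SNHG16 at -0.91, SNHG8 at -0.76 and SNHG17 at -0.69) lower, with a median of -0.17. RP11-304L19.5, at -1.23, lay below each of these 19 hosts, a place largely set by its selection on this ratio.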

How the data were processed

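Single-cell RNA-seq was measured in 1 library per group, and the genotype label of each library gave its group. The deposited values are raw UMI counts, made by the authors with Cell Ranger 3.0.2 from reads mapped to hg19 together with mm10 (mouse cells shared the lanes). The study's filter was applied: over 2000 and below 6000 genes, mitochondrial UMIs below 20%, mouse UMIs below 500. Doublets were not removed. UMIs were summed over cells and scaled to CPM, with exact Poisson intervals, exact conditional binomial intervals for ratios and Clopper-Pearson intervals for shares. For the counts of genes, fewer than 4 UMIs were set to 3. Phases were called with scanpy 1.11.5 on cells thinned to 8000 UMIs, which left out 413 control cells and 612 of the library labelled RUNX1. Positions came from GENCODE v44lift37 on GRCh37, matched by Ensembl identifier for 55538 of 57905 genes, and start windows from RefSeq (GRCh38.p14), which held 3 of the 5 lncRNAs by annotated name. The end sequence of RP11-495P10.8 is not reported here.

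The 5 lncRNAs, the gene lists and the subset genes were chosen with earlier results of these data known. Named were, besides the 5 and RUNX1, their nearest genes, the 5 highest and 2 lowest r per lncRNA (none for RP6-109B7.3), the 5 highest and 5 lowest lncRNAs by ratio and well-known lncRNAs past 2-fold. Other genes were named after their values were seen. Alternatives changed the scaling (TMM factors from edgeR 4.0.16), cell filter, state, gene floor and thinning, and the sum of B precursor markers without VPREB1 and IGLL1 was added after seeing the data. The ratio, share and correlation steps were tested on simulated data. The 10 ChIP-seq samples were not analysed here. Scripts used Python 3.11.15, numpy 2.4.6, scipy 1.17.1, pandas 2.3.3 and R 4.3.3.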

Additional observations from a re-analysis of the deposited data

How the results depend on the processing

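No paired analysis was possible because each group has 1 library. All 5 ratios between the libraries kept their direction under each of 8 alternatives. The log2 ratio of RP6-109B7.3 between non-cycling and cycling control cells, -0.02 with an interval that includes 0, became 0.01 with unthinned phase calls and 0.002 with a split at the median share of cell-cycle UMIs. Under TMM factors more genes were lower (461) than higher (344), against 327 and 413. In cycling cells only, the log2 ratios were 4.93 for LINC00511, 3.93 for AC019118.3 and 1.41 for RP11-495P10.8, and in non-cycling cells only, 4.50 for AC019118.3 (against the floor of 3 UMIs), 4.91 for RP11-495P10.8 (2 control UMIs, 3.05 to 7.96) and -1.56 for RP11-304L19.5. The ratio of RP11-304L19.5 was further -1.32 with TMM factors, -1.07 with median-of-ratios factors, -1.01 without mitochondrial and ribosomal protein genes in the totals and -1.52 in cells under 10% mitochondrial UMIs. The number of genes at least 2-fold higher was 918 of 9412 without those genes in the totals and 697 of 8231 under 10% mitochondrial UMIs. It was 126 of 7699 in cycling cells, 641 of 7927 in non-cycling cells and 1608 of 12782 at a floor of 1 CPM. The number lower was 179 of 8032 with median-of-ratios factors, 177 of 9412 without those genes, 117 of 7699 in cycling cells and 502 of 12782 at 1 CPM. For lncRNA genes the number higher was 112 of 330 without those genes, 68 of 215 under 10% mitochondrial UMIs, 11 of 163 in cycling cells and 377 of 1148 at 1 CPM. The number lower was 7 of 196 with TMM factors, 9 of 330 without those genes, 10 of 218 in non-cycling cells and 41 of 1148 at 1 CPM. With cells split at the median share of cell-cycle UMIs, the log2 ratio of RP11-304L19.5 between non-cycling and cycling cells of the library labelled RUNX1 was 0.51 in place of 0.20. Without thinning, cells with a UMI were 24.3% for LINC00511, 12.8% for AC019118.3, 5.67% for RP11-495P10.8, 74.8% for RP11-304L19.5 and 17.5% for RP6-109B7.3. Of the 5 genes with the highest r, 3 stayed for RP11-495P10.8 within non-cycling cells and 2 with genes seen in 5% of cells, and 2 and 3 stayed for RP6-109B7.3. For these, except where fewer cells or genes were counted, the cause was not tested. The 3 higher lncRNAs had only 11, 5 and 15 control UMIs, and with 1 library per group no interval covers variation between cultures.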
